A study of Homo sapiens with 12 samples.

Results

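In HCT116 cells kept in culture for 2 months, 235 of 18289 genes tested changed by a different amount in MTHFD2 knock-out cells than in wild-type cells. These genes, called interacting here, had an interaction of genotype and time, the knock-out change (final minus initial) minus the wild-type change, with an adjusted p under 0.05 in edgeR's quasi-likelihood test. They made up 1.28% of the genes tested, with 148 (0.809%) higher and 87 (0.476%) lower in the interaction. HCT116 is a human colon carcinoma line, and MTHFD2 is a mitochondrial enzyme of folate metabolism. Poly-A RNA was sequenced from 4 groups of 3 libraries each, all from cells grown in DMEM with serum: MTHFD2-WT at the initial harvest, MTHFD2-WT at the final harvest, and MTHFD2 knock-out at the same harvests. The knock-out was made with CRISPR-Cas9 and is 1 clone, harvested just after it was made and again 2 months later, so the p-values measure the spread between libraries of 1 clone and of 1 wild-type line. Whether the wild type was itself cloned, when in the day cells were taken and whether libraries were made in batches are not given in the labels, and any batch shared by the libraries of a group cannot be told apart from that group.

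A cell line in culture is a growing population, and its gene expression can shift over passages. HCT116 cells carry an epithelial programme of keratins, junction proteins and intestinal transcription factors. They also held transcripts of BMP4, SMAD6 and SMAD7 and of most circadian clock genes listed here. Whether the cells respond to TGF-beta or BMP ligands, and whether their clock cycles, was not tested. The clock is a feedback loop in which the CLOCK and BMAL1 proteins switch on the PER and CRY genes, whose proteins then block CLOCK and BMAL1.

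Library totals lay between 38597809 and 40017561 counts. MTHFD2 itself (ENSG00000065911.13, chromosome 2, 74186172 to 74217565, plus strand) had 319 to 457 CPM in the 6 wild-type libraries and 123 to 155 CPM in the 6 knock-out libraries, where CPM stands for TMM-scaled CPM, counts relative to the library size. Its interaction was 0.21 (SE 0.15, adjusted p 0.601). Of 12 colon epithelium markers 8 were abundant enough to test, with a summed level of 2221 to 3239 CPM over all libraries and nearly all of it from EPCAM, CDH1, KRT8, KRT18 and KRT19. Fibroblast markers summed to 37.5 to 78.8 CPM, mostly COL1A1, while DCN and LUM had no count in any library. Leukocyte markers summed to 1.14 to 2.20 CPM, with CD3D and CD3E at 0, and endothelial markers to 2.06 to 3.81 CPM. HNF4A was the only marker of these 4 lists with an interaction.

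The number of genes called over the 2 months depended on how the libraries were fitted. With 1 model of all 12 libraries, 1183 wild-type genes (6.47% of those tested) and 270 knock-out genes (1.48%) were called, and with each genotype fitted separately the order turned, to 578 and 728. Sorted by the calls of the 1 model, 161 of the 235 interacting genes were called in the wild type alone, 34 in the knock-out alone, 18 in both in opposite directions, 7 in both in the same direction and 15 in neither. The wild-type class held 95 genes that fell and 66 that rose, and the knock-out class held 23 that rose and 11 that fell. In 188 of the 235 genes (80%) the fold changes of the genotypes had opposite signs, where 43.3% of all genes tested had, a direction that the choice of genes by their interaction favours. These classes use the same values as the interaction, so they are a description, and 178 of the 235 genes kept their class when sorted by the separate fits. MUC13, TIMP3 and ITGB8, given here with the wild type alone, were then in the opposite class. DCLK1, KRT80 and SPARC, also given with the wild type alone, were then called as falling in both genotypes. They were in that same-direction class at an unadjusted p under 0.05 as well. In the class called in the wild type alone, the smaller of the changes in the 2 genotypes was under 1.5-fold in 92 of the 95 genes that fell and in 61 of the 66 that rose. The share among all genes was not counted, and in 56 of the 161 genes both changes were under 1.5-fold. Protein-coding genes made up 92.8% of the interacting genes and 75.4% of all genes tested. At the threshold itself, IFI6 lay just inside with -0.96 (adjusted p 0.0497) and TMEM38A just outside with -0.63 (adjusted p 0.0501).

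**Figure D1:**
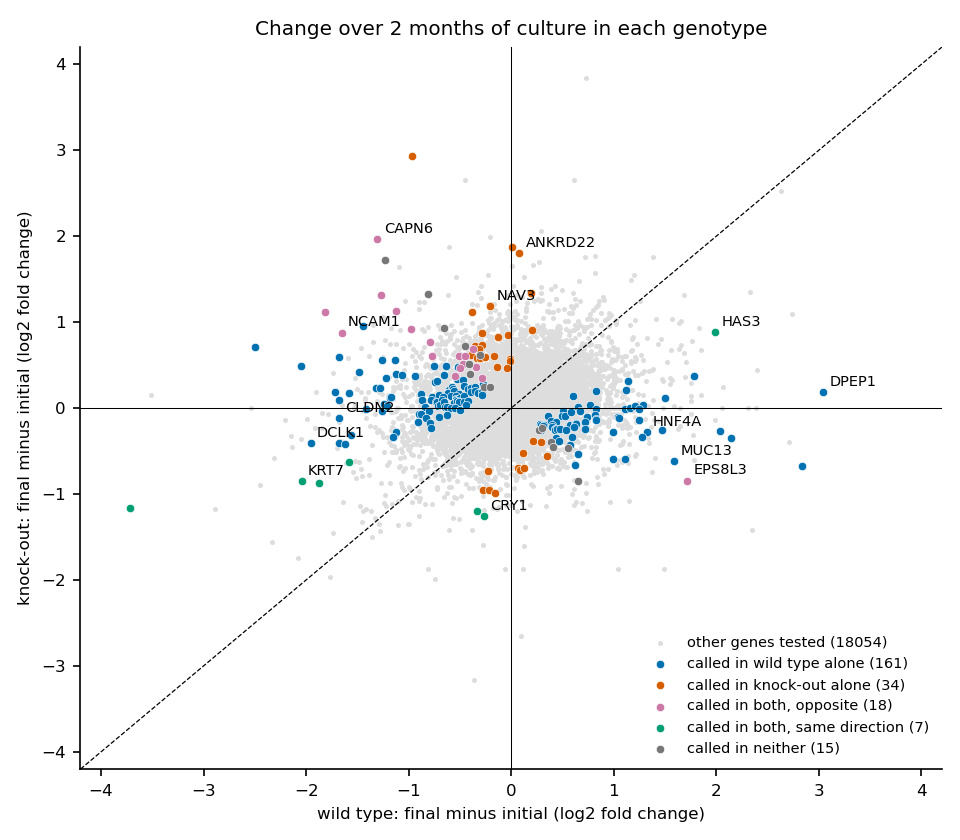
Change over 2 months in the wild type (x axis) against the knock-out (y axis), both as log2 fold change of final over initial, for all 18289 genes tested (grey) and the 235 interacting genes coloured by class; the dashed line marks equal change. The 161 genes called in the wild type alone lie along the x axis and the 34 called in the knock-out alone along the y axis, and 1 interacting gene, LINC00698, lies outside the axes, which end at 4.2.

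The roles of the interacting genes were sorted by hand, after the genes were known, into 15 groups from textbook knowledge, with the remainder left as other or noncoding; since the genes without an interaction were not sorted, the numbers have no background. Regulators of transcription and chromatin were the largest named group with 32 genes, of which 26 were called in the wild type alone (16 fell, 10 rose). Intracellular signalling followed with 22 genes, of which 15 fell and 5 rose in the wild type alone. The cytoskeleton and the metabolic and glycosylation enzymes had 19 genes each. All 5 clock genes had a lower interaction, and none was called in the wild type alone. Of the 9 adhesion and junction genes, 5 fell in the wild type alone. Of the 8 secreted ligands, AREG, BMP4, TNFSF9 and WNT9A rose and FGF9 and NRG1 fell in the wild type alone, while PDGFC and TNFSF18 moved in opposite directions.

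**Figure D2:**
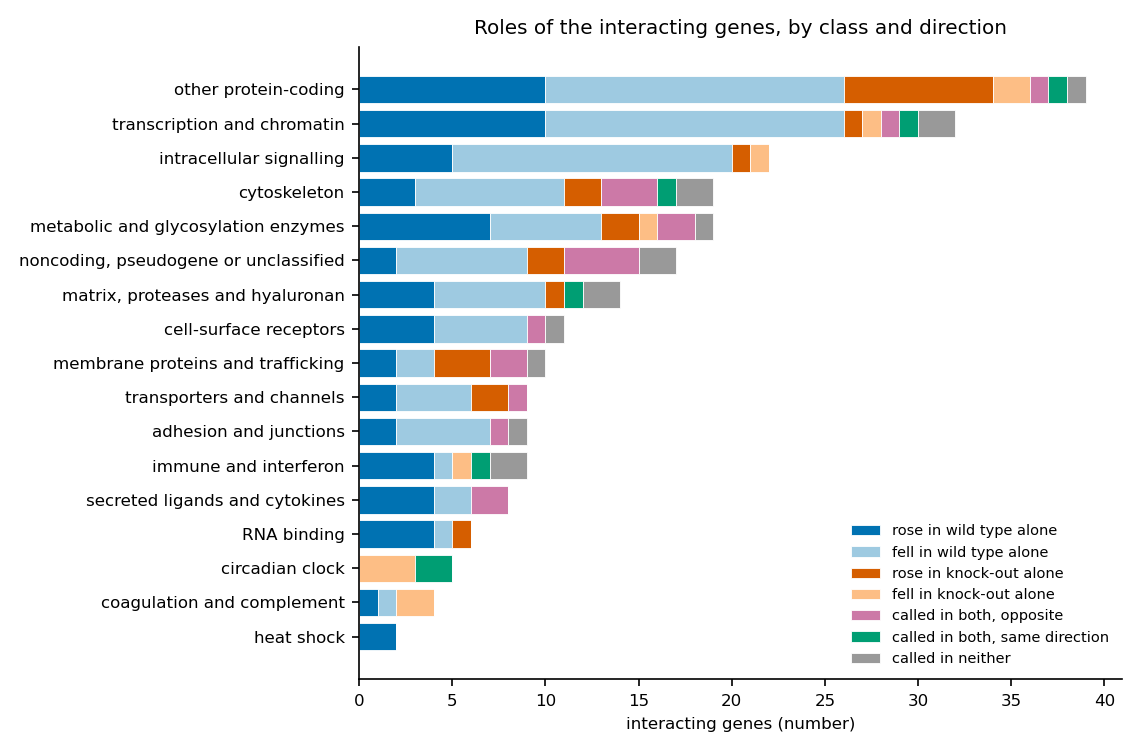
Number of interacting genes (x axis) in each role group (y axis), with bars split by class and direction of change over time. Transcription and chromatin genes (32) and intracellular signalling genes (22) are the longest named bars, mostly from genes called in the wild type alone, and the clock bar (5) holds no such gene.

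Genes that rose in the wild type alone included some of the intestine, while SLC15A1, MYB, DCLK1 and SLC5A1, other gut genes described below, fell there. Of 34 members of a list of intestinal identity and differentiation, 12 were abundant enough to test. DPEP1, HNF4A and MUC13 were the 3 interacting genes among these 12, all lower in the interaction (0.476% of all genes). The median interaction of the list was -0.42, where that of all genes was 0.01. DPEP1 (ENSG00000015413.9, chromosome 16, 89613308 to 89638456, plus strand), a brush border dipeptidase, had 6.25, 5.93 and 6.91 CPM in the initial and 59.9, 49.6 and 47.8 CPM in the final wild-type libraries. In the knock-out it had 1.29, 0.827 and 1.05 CPM initially and 0.78, 1.43 and 1.38 CPM finally, below every wild-type library. The wild-type log2 change was 3.04 (SE 0.15, adjusted p 5.9e-09), the knock-out change was 0.18 (SE 0.23, adjusted p 0.763), and the wild-type groups did not overlap.

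HNF4A (ENSG00000101076.18, chromosome 20, 44355700 to 44434596, plus strand), a transcription factor of intestine and liver epithelium, had 6.01, 8.7 and 7.23 CPM in the initial and 16.8, 19.4 and 18.6 CPM in the final wild type. The knock-out had 10.9, 11.6 and 11.2 CPM and then 9.16, 8.65 and 9.97 CPM. All initial knock-out libraries were above all initial wild-type libraries, and at the end the order was the other way round. MUC13 (ENSG00000173702.7, chromosome 3, 124905442 to 124953819, minus strand), a transmembrane mucin of the gut surface, had 1.39, 0.84 and 1.48 CPM and then 4.21, 3.96 and 3.03 CPM in the wild type. In the knock-out it had 3.46, 3.11 and 2.63 CPM and then 1.86, 2.42 and 1.71 CPM, a change of -0.62 (SE 0.20, adjusted p 0.152) that did not pass the threshold. These groups did not overlap, as in 23.2% of all genes. Of the 12 list members, 4 rose in the wild type, where 3.05% of all genes rose, and none fell. None was called in the knock-out, where 1.48% of all genes were.

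TIMP3, an inhibitor of matrix metalloproteinases, had 5.23, 4.72 and 7.11 CPM initially and 13.6, 11.6 and 11.5 CPM finally in the wild type, against 6.18, 5.94 and 5.33 and then 3.75, 3.98 and 3.84 CPM in the knock-out. The knock-out change of -0.59 (SE 0.15, adjusted p 0.0551) lay just outside the threshold, so that here the class rests on a narrow margin. DNAH2, a dynein heavy chain of motile cilia, changed by 1.47 (SE 0.15, adjusted p 1.76e-05) in the wild type from 4.88, 4.57 and 5.08 to 14.8, 12.7 and 12.8 CPM, and stayed at or under 1.08 CPM in every knock-out library. PKIB, an inhibitor of cAMP-dependent protein kinase, rose by 1.79 (SE 0.17, adjusted p 7.61e-06) in the wild type. Its interaction was lost without the initial knock-out replicate 3 (adjusted p 0.0644).

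The ligand genes AREG and BMP4 and the BMP target ID2 were among the genes that rose in the wild type alone. AREG, a ligand of the EGF receptor, had 295, 416 and 391 CPM in the initial and 852, 761 and 788 CPM in the final wild type, and 144, 154 and 167 and then 171, 183 and 182 CPM in the knock-out. Both genotypes had higher values at the end, but the wild-type change of 1.12 (SE 0.11, adjusted p 1.59e-05) was the larger and the knock-out change of 0.20 (SE 0.11, adjusted p 0.412) did not pass. BMP4, a ligand of the BMP receptors, had 271, 320 and 305 CPM and then 499, 521 and 504 CPM in the wild type. Its level in the knock-out was higher throughout, from 932 to 1052 CPM over 6 libraries whose groups overlapped. ID2, a transcriptional inhibitor that BMP signals induce, changed by 0.29 (SE 0.08, adjusted p 0.0397) in the wild type and -0.20 (SE 0.08, adjusted p 0.253) in the knock-out; its interaction was lost in 9 of 12 fits that left out 1 library, with the highest adjusted p, 0.161, without the initial knock-out replicate 3. The receptor genes IL4R (0.36 in wild-type cells, -0.09 in knock-out cells), IL6R (0.62 and -0.18) and LPAR5 (0.43 and -0.16), chosen after their values were seen, belonged to the same class. The calls of IL4R and LPAR5 held in 2 and 1 of the 12 fits that left out 1 library, and that of IL6R in all 12.

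Further genes that rose in the wild type alone were members of lists of glycolysis and hypoxia, matrix, interferon, NF-kB and zinc finger genes. Interacting were 5% of 40 tested glycolysis and hypoxia genes, 5.13% of 39 matrix genes and 5.71% of 35 interferon genes. The shares were 5% of 20 NF-kB genes and 0.637% of 157 zinc finger genes, against 1.28% of all genes. The other interacting matrix gene, ITGB8, fell in the wild type, and the other interferon gene, IFI35, fell in the knock-out. On the NF-kB list, which holds ICAM1, 1 of 20 genes tested rose and 5 fell in the wild type, where 3.05% and 3.42% of all genes did. SLC2A1, the main glucose transporter of most cultured cells, had 420, 361 and 408 CPM initially and 732, 551 and 560 CPM finally in the wild type, and changed by -0.18 (SE 0.11, adjusted p 0.492) in the knock-out. Its interaction was lost when replicate 1 of the initial knock-out (adjusted p 0.0533) or of the final knock-out (0.0568) was left out. NDRG1, a hypoxia-induced gene, rose by 0.83 (SE 0.14, adjusted p 0.0019), COL17A1, a collagen of hemidesmosomes, by 1.28 (SE 0.16, adjusted p 0.000135), and ICAM1, a leukocyte adhesion receptor, by 0.62 (SE 0.14, adjusted p 0.0152). In the knock-out ICAM1 changed the other way, from 9.23, 9.3 and 8.29 to 5.01, 5.84 and 6.08 CPM, without passing (-0.66, SE 0.16, adjusted p 0.0506). Its interaction was called in all 12 fits that left out 1 library, but its class was the knock-out alone in separate fits and opposite when sorted by size or at an unadjusted p. IFI6, an interferon-induced gene, rose by 0.72 (SE 0.16, adjusted p 0.013) and ZNF426, a zinc finger gene, by 1.04 (SE 0.14, adjusted p 0.000292). The calls of NDRG1 (6 of 12), ZNF426 (6 of 12) and IFI6 (10 of 12) were lost in fits that left out 1 library, each with its highest adjusted p (0.0856, 0.123 and 0.162) without the initial knock-out replicate 2.

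H1-2, a linker histone, was the 1 interacting gene of 21 tested replication-dependent histones (4.76%, against 1.28% of all genes). It had 5.71, 7.49 and 6.66 CPM in the initial and 10.7, 10.6 and 11.9 CPM in the final wild type. Its change in the knock-out did not pass the threshold (-0.11, SE 0.12, adjusted p 0.732). Of these histones 11 rose in wild-type cells (3.05% of all genes) and 1 in knock-out cells (0.837%), with median log2 changes of 0.83 and 0.12. Their summed level was 35.2 to 40.5 CPM in the initial and 61.7 to 69.4 CPM in the final wild type, and 31.1 to 33.8 and then 37.1 to 42.4 CPM in the knock-out. Most histone transcripts lack a poly-A tail. Mitochondrial messenger RNA summed to 52958 to 72369 CPM in the initial and 85228 to 129914 CPM in the final wild type. In the knock-out the mitochondrial sum was 70055 to 74003 CPM and then 82803 to 94505 CPM. Of the 13 mitochondrially encoded genes 9 rose in the wild type (3.05% of all genes), 1 rose in the knock-out (0.837%) and none was interacting (1.28%). These sums moved with the classes that rose in the wild type, and their part in those results was not tested. The H1-2 call was lost in 4 of 12 fits that left out 1 library (adjusted p up to 0.0713 without the initial knock-out replicate 2).

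Genes that fell in the wild type alone formed the largest group, 95 genes with a median log2 change of -0.70 in wild-type and 0.13 in knock-out cells. CLDN2 (ENSG00000165376.12, chromosome X, 106900164 to 106930861, plus strand), a claudin that makes tight junctions permeable to cations, had 8.2, 8.38 and 9.06 CPM in the initial and 2.63, 2.89 and 2.48 CPM in the final wild type. The knock-out libraries had 3.58, 2.83 and 3.27 CPM and then 3.14, 3.11 and 2.66 CPM, so the final wild type lay within or just below the knock-out values. KRT80, a keratin, had 20, 26.9 and 22.2 CPM and then 7.6, 7.92 and 6.85 CPM in the wild type, and 23, 25.5 and 19.9 CPM and then 17.8, 15.7 and 17.7 CPM in the knock-out. The KRT80 knock-out groups did not overlap, as in 23.2% of all genes. Its neighbour KRT7, 40506 bases away on chromosome 12, is described with the genes that moved the same way in both genotypes. With GRHL2 and ESRP1, which rose in the knock-out alone, these made 5 interacting genes of 33 tested epithelial junction and keratin genes, all higher in the interaction (0.809% of all genes). The median interaction of the list was 0.06.

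The inhibitory SMADs fell together in the wild type. SMAD7 (ENSG00000101665.10, chromosome 18, 48919853 to 48950965, minus strand), which blocks TGF-beta receptor signals, had 8.06, 8.62 and 8.41 CPM initially and 2.77, 2.53 and 2.54 CPM finally in the wild type. Its knock-out values, 2.62, 2.41 and 2.07 and then 2.04, 1.76 and 1.56 CPM, were at the level of the final wild type or below from the start. These knock-out groups did not overlap, as in 23.2% of all genes, and at an unadjusted p under 0.05 SMAD7 was in the same-direction class. SMAD6, which acts mainly on BMP signals, had 16, 14.6 and 16.5 CPM and then 9.61, 9.51 and 8.38 CPM in the wild type and 16.6, 16 and 16.2 and then 17.2, 19.3 and 16.9 CPM in the knock-out. With BMP4 and ID2, these were the 4 interacting genes of 24 tested members of a list of TGF-beta, BMP and Notch genes, 2 higher and 2 lower (0.809% and 0.476% of all genes), with a median interaction of 0.05. SPRY1, an inhibitor of growth factor signalling, and GRB10, an adaptor that restrains insulin and IGF receptors, changed by -0.56 (SE 0.13, adjusted p 0.015) and -0.29 (SE 0.07, adjusted p 0.0237) in the wild type. Their interactions were each lost in 11 of 12 fits that left out 1 library, with adjusted p up to 0.15 for SPRY1 (without the initial knock-out replicate 3) and 0.146 for GRB10 (without the initial knock-out replicate 1).

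Genes of the cell surface and of transport also fell in the wild type. TM4SF18 (ENSG00000163762.7, chromosome 3, 149318498 to 149334414, minus strand), a tetraspanin-like membrane protein, had 3.96, 2.4 and 3 CPM in the initial and 1.17, 0.73 and 0.957 CPM in the final wild type, while all 6 knock-out libraries lay between 47.7 and 58.6 CPM. ITGB8, an integrin chain that binds latent TGF-beta, had 33.7, 18.2 and 27.7 CPM and then 11.6, 11.9 and 12.7 CPM in the wild type, and 15.9, 15.1 and 14.6 CPM and then 24.5, 24.9 and 17.9 CPM in the knock-out. The initial wild-type replicates of ITGB8 were far apart, yet none reached down to the final ones, and the call held in all 12 fits that left out 1 library. SLC15A1, the intestinal peptide transporter, changed by -1.32 (SE 0.12, adjusted p 7.04e-06) in the wild type, from 10.5, 8.06 and 9.18 to 3.99, 3.52 and 3.62 CPM. In the knock-out it changed by 0.23 (SE 0.12, adjusted p 0.383). ARRDC4, an arrestin-domain protein, changed by -1.22 (SE 0.15, adjusted p 0.000118) and DCLK1, a doublecortin-like kinase known as a marker of gut tuft cells, by -1.95 (SE 0.18, adjusted p 6.65e-06) in the wild type. DCLK1 had 12.3, 14.3 and 12.6 CPM and then 11, 9.21 and 9.39 CPM in the knock-out, a change that did not pass. These groups did not overlap, as in 23.2% of all genes. PLXNA2, a semaphorin receptor, changed by -0.63 (SE 0.14, adjusted p 0.00969) in the wild type.

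Among the 16 transcription and chromatin genes that fell in the wild type alone, chosen after their values were seen, EHF is an epithelial ETS factor. It had 144, 130 and 150 CPM in the initial and 60.1, 58.9 and 60.7 CPM in the final wild type, and 69, 73.5 and 74.7 CPM and then 79.1, 70.8 and 73.5 CPM in the knock-out, so the genotypes were nearer to each other at the end. MYB, a factor of intestinal progenitor cells, changed by -0.72 (SE 0.12, adjusted p 0.00143) in the wild type and 0.32 (SE 0.13, adjusted p 0.244) in the knock-out. MECOM, a zinc finger factor, changed by -0.75 (SE 0.13, adjusted p 0.0026) and 0.49 (SE 0.13, adjusted p 0.0698), and GLI2, an effector of hedgehog signalling, by -0.91 (SE 0.10, adjusted p 4.59e-05) and -0.16 (SE 0.10, adjusted p 0.485). In the same class CYP27B1, which makes active vitamin D, changed by -0.68 (SE 0.09, adjusted p 0.00017) in the wild type, from 19.6, 20.9 and 21.8 to 13.7, 12.6 and 12.7 CPM, and by 0.10 (SE 0.09, adjusted p 0.651) in the knock-out. The olfactory receptor genes OR51B4, OR51B5 and OR51B2, neighbours on chromosome 11 whose annotated spans partly overlap, had wild-type changes of -0.50, -0.66 and -0.52 and knock-out changes of 0.12, 0.39 and 0.47, and their reads cannot be fully told apart. In separate fits MECOM and OR51B5 were in the opposite class and OR51B2 in the knock-out alone. SPARC, a matrix protein, changed by -1.16 (SE 0.11, adjusted p 1.29e-05) and GPT2, an alanine transaminase and ATF4 target, by -0.46 (SE 0.08, adjusted p 0.0022) in the wild type. GPT2 was the 1 interacting gene among 45 tested serine synthesis and ATF4 targets, a share (2.22%) near the 1.28% of all genes. Of the 45 genes 18 fell in wild-type cells (3.42% of all genes) and 1 in knock-out cells (0.64%). The calls of SPARC (4 of 12) and GPT2 (8 of 12) were lost in fits that left out 1 library, with adjusted p up to 0.0556 without the final wild-type replicate 2 and 0.112 without the final wild-type replicate 3.

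Genes that rose in the knock-out alone numbered 23, with a median log2 change of 0.73 in the knock-out and -0.17 in the wild type. NAV3 (ENSG00000067798.16, chromosome 12, 77324641 to 78213010, plus strand), a microtubule-associated protein, had 20.8, 21.1 and 22 CPM in the initial and 51.5, 47.8 and 46.3 CPM in the final knock-out. The wild type had 21.7, 19.9 and 20.6 CPM and then 19.8, 16.8 and 17.3 CPM, a change of -0.21 (SE 0.09, adjusted p 0.187). These wild-type groups lay close together and did not overlap, as in 22.2% of all genes. CEMIP, a hyaluronan-binding protein of invasive tumours, had 67.8, 66.3 and 55.1 CPM and then 109, 123 and 114 CPM in the knock-out, against 52.8, 41.2 and 48.1 and then 42.4, 35.2 and 39.4 CPM in the wild type. Every final knock-out library was above every other library for both genes. ANKRD22, an ankyrin-repeat membrane protein, rose by 1.80 (SE 0.24, adjusted p 0.000818) in the knock-out, from 1.99, 0.802 and 1.96 to 6.39, 6.2 and 3.99 CPM, and changed by 0.08 (SE 0.21, adjusted p 0.879) in the wild type.

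The epithelial regulators GRHL2 and ESRP1 were part of the knock-out rise. Of the 33 tested epithelial junction and keratin genes, 2 were called higher in the knock-out (0.837% of all genes) and 2 lower (0.64%). The median knock-out change of this list was 0.08. GRHL2 (ENSG00000083307.12), a transcription factor of epithelial junction genes, had 16.6, 16.9 and 15.8 CPM in the initial and 29.6, 27.4 and 30.4 CPM in the final knock-out. Wild-type levels were higher throughout, with 46.7, 44.7 and 45.9 CPM and then 40.4, 40.5 and 45 CPM, so the final knock-out lay between its own start and the wild type. ESRP1, which directs epithelial splicing, had 126, 140 and 135 CPM and then 181, 180 and 192 CPM in the knock-out, while the wild-type libraries lay between 196 and 220 CPM. PROM2, a membrane glycoprotein of epithelial protrusions, rose by 1.33 (SE 0.14, adjusted p 7.23e-05) from 7.04, 5.96 and 5.08 to 13.6, 17.1 and 14.8 CPM. The same approach to the wild-type level was seen in its values, since the wild type had 21.2, 19.3 and 20.4 CPM and then 28, 21.4 and 20.3 CPM. ATP2C2, a calcium pump of the secretory pathway, rose by 0.69 (SE 0.11, adjusted p 0.00311) and MAST4, a microtubule-associated kinase, by 0.61 (SE 0.13, adjusted p 0.0255). In the wild type ATP2C2 changed by -0.32 (SE 0.10, adjusted p 0.0828) and MAST4 by -0.39 (SE 0.16, adjusted p 0.164). Their wild-type groups did not overlap, as in 22.2% of all genes, and at an unadjusted p under 0.05 both were in the opposite class. The endocytic adaptor EPN3 (0.84), the mucin-type glycosyltransferase GALNT3 (0.82) and MACC1 (0.91), chosen after their values were seen, also rose in the knock-out. The MACC1 interaction was called in 3 of 12 fits that left out 1 library, and those of EPN3 and GALNT3 in all 12. The calls of ESRP1 (8 of 12) and MAST4 (6 of 12) were lost in fits that left out 1 library, with adjusted p up to 0.0976 without the initial knock-out replicate 1 and 0.0738 when replicate 2 of that group was left out.

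Clock genes made up 3 of the 11 genes that fell in the knock-out alone, and 2 more fell further in the knock-out than in the wild type. The 11 genes had a median GC content of 57.0%, against 48.8% for all genes, and knock-out changes correlated with GC content (Spearman rho -0.30). With a GC correction the interaction moved from -0.80 to -0.68 for PER1 and from -0.99 to -1.06 for CRY1, and all 5 clock genes stayed called. Of 18 clock genes tested 5 were interacting, all lower, where 0.476% of all genes were called lower. The median log2 change of the list was -0.12 for wild-type and -0.47 for knock-out cells, and its median interaction was -0.31 against 0.01 for all genes. In the knock-out CRY1, CRY2, HLF, PER1, PER2, PER3 and TEF fell, 7 members where 0.64% of all genes fell, and 1 member, BMAL1, rose (0.837% of all genes). In the wild type CRY1, HLF and PER2 fell, 3 members where 3.42% of all genes did. The 250 bases before the RefSeq start sites of the 5 interacting clock genes are shown because these genes moved together and CLOCK and BMAL1 act through the E-box. Capitals mark the E-box CACGTG, which reads the same on both strands, and its variant CACGTT, which reads AACGTG on the other strand; the motifs do not overlap each other in these windows (GRCh38.p14, 5′ to 3′ along the gene).
PER1 (chr17:8152405-8152654, minus strand): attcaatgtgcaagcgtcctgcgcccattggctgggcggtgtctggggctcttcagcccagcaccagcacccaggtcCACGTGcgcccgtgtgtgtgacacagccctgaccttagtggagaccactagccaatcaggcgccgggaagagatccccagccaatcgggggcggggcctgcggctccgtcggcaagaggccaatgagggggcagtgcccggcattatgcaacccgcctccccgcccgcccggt
PER2 (chr2:238288611-238288860, minus strand): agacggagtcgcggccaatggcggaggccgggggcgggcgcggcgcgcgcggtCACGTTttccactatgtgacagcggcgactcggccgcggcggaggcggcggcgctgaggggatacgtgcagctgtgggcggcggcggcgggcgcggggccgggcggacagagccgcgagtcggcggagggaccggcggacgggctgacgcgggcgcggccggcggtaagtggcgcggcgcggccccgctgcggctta
CRY1 (chr12:107093550-107093799, minus strand): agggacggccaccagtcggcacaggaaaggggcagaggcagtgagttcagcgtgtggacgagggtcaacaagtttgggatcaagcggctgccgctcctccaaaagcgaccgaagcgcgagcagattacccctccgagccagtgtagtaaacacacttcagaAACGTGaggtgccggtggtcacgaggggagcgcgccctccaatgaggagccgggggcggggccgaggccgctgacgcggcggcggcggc
CRY2 (chr11:45847225-45847474, plus strand): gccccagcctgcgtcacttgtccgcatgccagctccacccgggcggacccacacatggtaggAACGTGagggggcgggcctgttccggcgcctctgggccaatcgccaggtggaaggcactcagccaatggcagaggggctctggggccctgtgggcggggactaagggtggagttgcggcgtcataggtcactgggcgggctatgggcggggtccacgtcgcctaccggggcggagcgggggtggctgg
TEF (chr22:41367205-41367454, plus strand): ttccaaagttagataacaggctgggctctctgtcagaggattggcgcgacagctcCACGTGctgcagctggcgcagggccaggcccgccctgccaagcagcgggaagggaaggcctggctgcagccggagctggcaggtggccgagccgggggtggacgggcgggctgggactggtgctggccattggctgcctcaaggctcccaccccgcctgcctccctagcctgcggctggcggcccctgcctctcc
TEF (chr22:41381692-41381941, plus strand): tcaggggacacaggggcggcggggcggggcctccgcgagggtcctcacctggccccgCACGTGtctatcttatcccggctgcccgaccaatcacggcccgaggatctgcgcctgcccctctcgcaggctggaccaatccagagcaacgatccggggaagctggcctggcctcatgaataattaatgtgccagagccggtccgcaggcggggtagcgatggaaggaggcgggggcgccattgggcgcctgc
A further CRY2 start has no such letters in its window. Over the 17 tested clock genes with RefSeq windows, 12 of 25 windows (48.0%) held either form, as did 12.5% of the 17409 windows of genes tested and 10.6% of all 35116 windows. The interacting genes as a whole were near that background, with 30 of 263 windows (11.4%). Windows of BHLHE40, BHLHE41, CIART, CLOCK, NR1D1 and NR1D2 also held a form, and none of these genes was called in the knock-out. PER3 and HLF, which fell there, had no such letters in their windows. Within these 250-base windows the letters occurred both in clock genes that fell and in clock genes that were not called. Whether the E-box had a part in the fall was not tested. A match is a run of letters in the reference and was not measured as a binding site here.

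CRY1 (ENSG00000008405.12, chromosome 12, 106991364 to 107093549, minus strand) and CRY2 (ENSG00000121671.12, chromosome 11, 45847118 to 45883248, plus strand) encode cryptochromes, which block CLOCK and BMAL1. CRY1 had 40.3, 39.7 and 37.6 CPM in the initial and 16.2, 16.1 and 16.7 CPM in the final knock-out, against 27.3, 27.4 and 28.9 CPM and then 23.9, 23.2 and 22.3 CPM in the wild type. The initial knock-out was the highest group and the final knock-out the lowest, with no overlap among the 4 groups. CRY2 had 44.6, 39.1 and 36.7 CPM and then 21.1, 21.1 and 20 CPM in the knock-out, and 38.1, 32.5 and 34.5 CPM and then 33.3, 30.4 and 26.6 CPM in the wild type. PER1 (ENSG00000179094.16, chromosome 17, 8140472 to 8156506, minus strand) and PER2 (ENSG00000132326.12, chromosome 2, 238244044 to 238290102, minus strand) encode the period proteins, partners of the cryptochromes. PER1 had 123, 117 and 119 CPM and then 71.1, 71.7 and 74.2 CPM in the knock-out, while the 6 wild-type libraries lay between 114 and 142 CPM. PER2 had 38.1, 37.4 and 36.3 CPM and then 16.2, 15.7 and 16.9 CPM in the knock-out, and 33.5, 28.7 and 31.6 CPM and then 24.3, 24.9 and 25.1 CPM in the wild type.

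As log2 changes, CRY1 changed by -0.27 (SE 0.08, adjusted p 0.0433) in the wild type and -1.26 (SE 0.08, adjusted p 3.17e-07) in the knock-out, and PER2 by -0.34 (SE 0.08, adjusted p 0.0174) and -1.20 (SE 0.08, adjusted p 8.86e-07). TEF, a clock-controlled transcription factor of the PAR bZIP family, changed by -0.22 (SE 0.08, adjusted p 0.103) in the wild type and -0.73 (SE 0.08, adjusted p 7.1e-05) in the knock-out, from 62.4, 65.6 and 59.9 to 37.6, 35.3 and 40.7 CPM. PER3 (-0.92, SE 0.14, adjusted p 0.00265) and HLF (-0.88, SE 0.13, adjusted p 0.00154), a relative of TEF, fell in the knock-out. Their interactions of -0.61 (SE 0.20, adjusted p 0.193) and -0.44 (SE 0.18, adjusted p 0.319) did not pass the threshold. BMAL1, the partner of CLOCK in activating these genes, rose by 0.55 (SE 0.10, adjusted p 0.00899) in the knock-out and changed by 0.04 (SE 0.10, adjusted p 0.867) in the wild type, with an interaction of 0.51 (SE 0.14, adjusted p 0.0997). CLOCK (0.18 in the knock-out) and the nuclear receptor genes NR1D1 (0.16) and NR1D2 (0.09), whose proteins repress BMAL1, did not pass in either genotype. The CRY2 call was lost without the initial wild-type replicate 3 (adjusted p 0.0516), and that of TEF in 8 of 12 fits that left out 1 library, with adjusted p up to 0.114 without the initial knock-out replicate 2. CRY1, PER1 and PER2 were called in all 12.

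**Figure D3:**
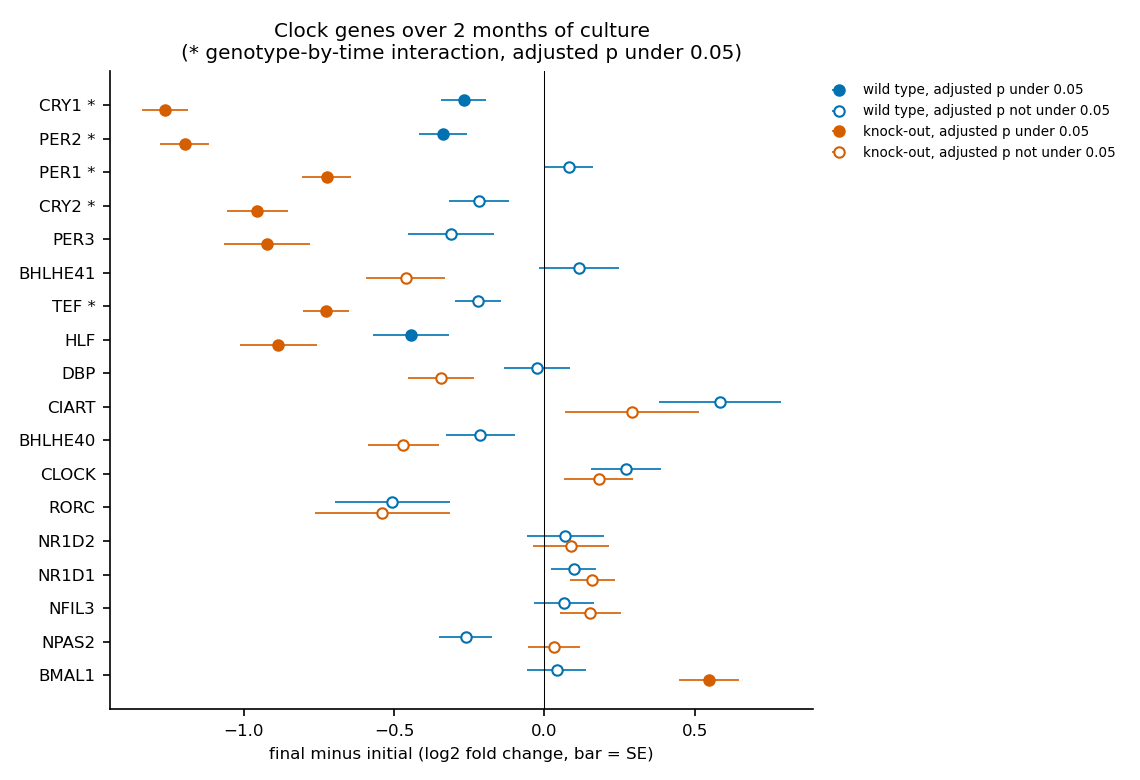
Log2 fold change of final over initial (x axis, bars are SE) for the 18 clock genes tested, in the wild type (blue) and the knock-out (orange), ordered by interaction; filled points passed an adjusted p of 0.05. The 7 genes that fell in the knock-out lie between -1.26 and -0.72, and BMAL1 is the 1 gene called to the right.

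The other genes that fell in the knock-out alone included clotting and stress genes. F3 (ENSG00000117525.14, chromosome 1, 94529173 to 94541759, minus strand), tissue factor, had 51.4, 47.7 and 47.8 CPM in the initial and 29.9, 32.8 and 27.7 CPM in the final knock-out, while the wild-type libraries lay between 52.2 and 66.1 CPM. F10, coagulation factor X, changed by -0.56 (SE 0.12, adjusted p 0.0326) in the knock-out and 0.35 (SE 0.13, adjusted p 0.125) in the wild type. OSGIN1, an oxidative stress gene induced by NRF2, had 19.9, 21.5 and 20.5 CPM and then 10.4, 9.77 and 11 CPM in the knock-out and overlapping groups in the wild type. It was the 1 interacting gene among 18 tested NRF2 and NADPH genes, lower as were 0.476% of all genes. IFI35, an interferon-induced gene, changed by -0.70 (SE 0.13, adjusted p 0.0123) in the knock-out, whereas IFI6 was called in the wild type alone. Both had a lower interaction (-0.82 for IFI35, -0.96 for IFI6). The F10 call was lost without the initial knock-out replicate 1 (adjusted p 0.0507) and replicate 2 (0.0539), and that of IFI35 in 8 of 12 such fits, with adjusted p up to 0.116 without the initial knock-out replicate 2.

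The 18 genes called in both genotypes in opposite directions were 17 that fell in the wild type and rose in the knock-out and 1, EPS8L3, that did the reverse. CAPN6 (ENSG00000077274.9, chromosome X, 111245099 to 111270483, minus strand), a calpain relative that lacks protease activity and binds microtubules, had 4.76, 4.18 and 5.71 CPM initially and 1.87, 1.62 and 2.43 CPM finally in the wild type. In the knock-out it had 4.19, 4.89 and 4.26 CPM and then 17.3, 15.8 and 19.1 CPM. The genotypes overlapped at the initial harvest and were furthest apart at the final one, with changes of -1.30 (SE 0.16, adjusted p 0.000131) and 1.97 (SE 0.14, adjusted p 1.23e-06). A neural cell adhesion molecule, NCAM1 (ENSG00000149294.17, chromosome 11, 112961247 to 113278436, plus strand), had 14.7, 10.6 and 13 CPM and then 4.61, 3.49 and 4.06 CPM in the wild type, and 61.1, 55.9 and 51.1 CPM and then 96.9, 112 and 99.6 CPM in the knock-out. Here the knock-out was higher at the start and the distance widened.

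SLC5A1, the sodium-glucose transporter of the gut, had 5.3, 3.88 and 5.41 CPM and then 2.44, 2.03 and 2.2 CPM in the wild type and 2.55, 2.16 and 1.22 CPM and then 3.42, 4.85 and 4.7 CPM in the knock-out. KCTD12, an auxiliary subunit of GABA-B receptors, had 4.13, 3.68 and 3.1 CPM and then 1.28, 2.11 and 2.15 CPM, against 2.5, 2.58 and 2.37 and then 5.51, 3.98 and 4.62 CPM. Both genes were higher in the wild type at the start and higher in the knock-out at the end, with no overlap between genotypes at the final harvest. EPS8L3 (ENSG00000198758.11, chromosome 1, 109750080 to 109764027, minus strand), a relative of the actin regulator EPS8, had 1.47, 1.04 and 1.6 CPM and then 5.05, 4.17 and 4.27 CPM in the wild type, and 3.78, 3.38 and 4.18 CPM and then 2.04, 2.3 and 1.98 CPM in the knock-out, the mirror image of that pattern. CYP24A1, which breaks down active vitamin D and was chosen after its values were seen, changed by -0.37 (SE 0.08, adjusted p 0.00731) in the wild type and rose by 0.69 (SE 0.08, adjusted p 0.00012) in the knock-out. The ligand PDGFC (-0.55 in wild-type, 0.38 in knock-out cells), the TNF-family ligand TNFSF18 (-0.80 and 0.77), the membrane anchor ANK3 (-0.34 and 0.48) and the vesicle protein SYT1 (-0.28 and 0.35) followed CAPN6. Of the 17 genes 4 were noncoding RNAs. All 18 interactions were called in each of the 12 fits that left out 1 library, but the class was less firm. In separate fits 11 of the 18 kept it and 7, among them CYP24A1, ANK3 and SYT1, were called in the knock-out alone, and 10 kept it when sorted by a change of at least 1.5-fold. SYT1 was in the opposite class in 7 of 20 settings.

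The 7 genes called in both genotypes in the same direction differed in size only. KRT7 (ENSG00000135480.16, chromosome 12, 52232520 to 52252186, plus strand), a keratin of simple ductal epithelium, had 12.2, 16.6 and 14.2 CPM and then 3.45, 3.75 and 3.23 CPM in the wild type, and 10.2, 10.5 and 9.9 CPM and then 5.86, 5.31 and 5.8 CPM in the knock-out. LCN2, a siderophore-binding protein of innate immunity, changed by -1.87 (SE 0.13, adjusted p 2.47e-07) and -0.87 (SE 0.10, adjusted p 0.00014), from a knock-out start of 22.2, 22.9 and 23.8 CPM that was above every wild-type library. Together with ANKRD1 and SUSD2, they fell more in the wild type, although the SUSD2 interaction was called in 5 and the ANKRD1 interaction in 11 of 12 fits that left out 1 library. HAS3 (ENSG00000103044.11, chromosome 16, 69105653 to 69118719, plus strand), a hyaluronan synthase, rose in both, from 52.3, 55.9 and 50.2 to 242, 188 and 199 CPM in the wild type and from 25.2, 25.6 and 22.8 to 44.9, 46.1 and 45 CPM in the knock-out. Its log2 change was 1.99 (SE 0.09, adjusted p 5.9e-09) against 0.88 (SE 0.09, adjusted p 7.77e-05). CRY1 and PER2, given with the clock genes, fell more in the knock-out. Their small wild-type changes set their class: both were in the knock-out alone by size and in separate fits, and CRY1 kept its class in 7 of 20 settings and PER2 in 16.

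In the 15 genes called in neither genotype, the interaction summed 2 changes of opposite sign that each missed the threshold. LRP1B, a large endocytic receptor, had 23.6, 11.4 and 19.6 CPM and then 14.7, 12.4 and 13.1 CPM in the wild type, and 50.5, 45.4 and 41.3 CPM and then 71.6, 86 and 69 CPM in the knock-out. PRF1, the pore-forming protein perforin, changed by 0.41 (SE 0.12, adjusted p 0.057) in the wild type and -0.46 (SE 0.12, adjusted p 0.0884) in the knock-out. MAML3, a coactivator of Notch targets, had an interaction of 0.92 (SE 0.21, adjusted p 0.0404), and ADAMTS15, a matrix protease, one of -1.02 (SE 0.23, adjusted p 0.0438). None of the 15 was called in all 12 fits that left out 1 library. For PRF1 the call was lost without the initial knock-out replicate 2 (adjusted p 0.0688) and the final knock-out replicate 1 (0.0566), and the other 3 lost it in 7 to 11 fits, with adjusted p up to 0.111 for LRP1B, 0.15 for MAML3 and 0.133 for ADAMTS15.

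Several lists changed over time without an interacting member. Of 35 cholesterol and fatty acid synthesis genes 13 rose in wild-type cells (3.05% of all genes) and 5 in knock-out cells (0.837%), with median log2 changes of 0.31 and 0.22. No member of the 25 one-carbon folate genes was called in either genotype, and their median interaction was -0.01. DNA replication (47 genes tested), mitosis and kinetochore (52), DNA and histone methylation (40), Wnt targets (19), MHC class I presentation (14), clustered protocadherins (13), metallothioneins (7) and cancer-testis antigens (7) also had no interacting member in edgeR's test. Of all genes 1.28% were interacting, and at that share lists of these sizes can hold none without differing from all genes. Among 42 p53 targets 7 rose (3.05% of all genes) and 1 fell (3.42%) in the wild type, and 1 fell in the knock-out (0.64%). The 1 interacting p53 target (2.38%, against 1.28% of all genes) was SPATA18, named after its values were seen, with -2.30 (SE 0.54, adjusted p 0.0479) at a level of 0.10 to 1.63 CPM, and its call held in 1 of 12 fits that left out 1 library.

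**Figure D4:**
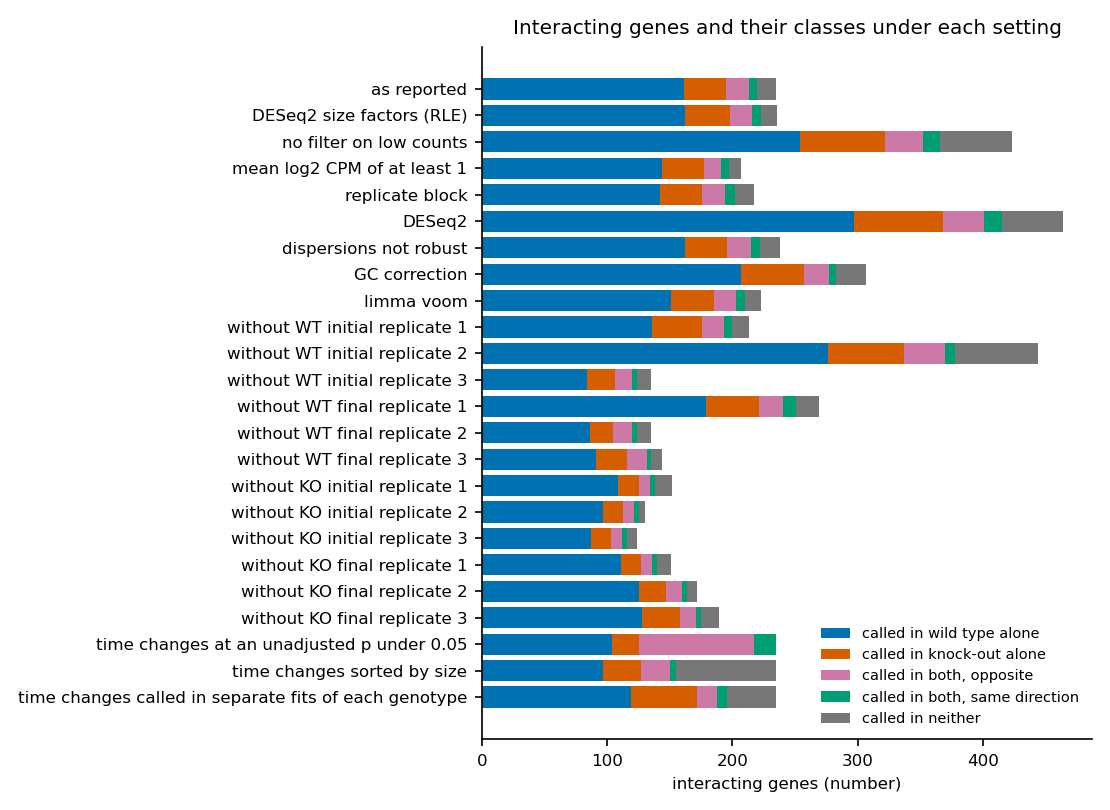
Number of interacting genes (x axis), split by class, as reported and under each alternative setting or with 1 library left out (y axis). The total runs from 124 to 464, and the class called in the wild type alone is the largest in every bar.

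The number of interacting genes depended on single libraries more than on the scaling. It was 236 with the size factors of DESeq2, 444 when the initial wild-type replicate 2 was left out and 124 when replicate 3 of the initial knock-out was, and 102 of the 235 genes were called in all 12 fits that left out 1 library. The class borders moved with the rule for calling a change over time. With an unadjusted p under 0.05, 92 genes were in the opposite class and 104 in the wild type alone, and by a change of at least 1.5-fold in size 97 were in the wild type alone. Of the 59 named genes with an interaction, 38 were called in all 12 fits.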

How the data were processed

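Poly-A selected RNA of 12 HCT116 libraries was sequenced, 3 for each genotype and harvest. Values in the deposited table are raw read counts for each gene, not normalized; STAR, featureCounts of Subread and the build hg38 are named in the submitters' processing notes, without versions. The annotation release and the use of strand are not given in the sources used here. Of the gene IDs, 37318 match GENCODE 29 in version and coordinates on GRCh38. The table's 60648 genes exclude 1 gene that a spreadsheet had broken over 5 lines.

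Genes were kept with filterByExpr by group, scaled with TMM and modelled with robust quasi-likelihood fits of 4 group means, using edgeR version 4.0.16, limma version 3.58.1 and R version 4.3.3. P-values were Benjamini-Hochberg adjusted over all 18289 genes, and the biological coefficient of variation was 9.77%. Contrasts were the change over time in each genotype and their difference; interacting genes were sorted by the calls of the time contrasts. CPM are TMM-scaled. Library totals (38597809 to 40017561 counts) set the counting precision.

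Named genes were, among interacting genes that had a symbol and averaged 1 or more in log2 CPM, pseudogenes left out, those with the largest interaction in each class and direction (6 in the classes of 1 genotype, 4 in the opposite class, 2 in the others), all interacting members of 28 gene lists and 4 marker lists, and MTHFD2: 60 genes. The members and lists were chosen with earlier results of these data known. Roles were assigned by hand. Of the named genes, 7 share exonic bases with a gene on the same strand and 19 with one on the other strand, so their counts can include reads of neighbours. The 7 are COL17A1, HNF4A, IFI6, LRP1B, OSGIN1, PER1 and PKIB. Promoter windows are RefSeq's, on GRCh38.p14.

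Alternatives were size factors of DESeq2 1.42.0, its test, no filter, a filter at 1 in mean log2 CPM, a replicate block, dispersions without robust fitting, a GC correction, separate fits, other ways to sort the classes and leaving out each library; limma voom was added after the data were seen. The model was tested on simulated data.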

Additional observations from a re-analysis of the deposited data

Results flagged for a closer look

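The change over time differed between wild type and knock-out by edgeR's test of the difference itself in 59 of the 60 named genes, given here with the interaction as log2 fold change (the knock-out change minus the wild-type change). Among genes called in the wild type alone, those that fell there were TM4SF18 (1.90), ITGB8 (1.70), ARRDC4 (1.57), CLDN2 (1.56), DCLK1 (1.55), SLC15A1 (1.54), SMAD7 (1.27), KRT80 (1.21), PLXNA2 (1.12), SMAD6 (0.90), SPARC (0.82), SPRY1 (0.76), GPT2 (0.52) and GRB10 (0.44). Those that rose in the wild type alone were DPEP1 (-2.86), MUC13 (-2.21), DNAH2 (-1.72), TIMP3 (-1.70), HNF4A (-1.60), PKIB (-1.41), ICAM1 (-1.29), COL17A1 (-1.24), ZNF426 (-1.14), IFI6 (-0.96), NDRG1 (-0.95), AREG (-0.92), H1-2 (-0.85), SLC2A1 (-0.81), BMP4 (-0.73) and ID2 (-0.49). In the knock-out alone, the genes that rose were ANKRD22 (1.72), NAV3 (1.39), CEMIP (1.15), PROM2 (1.14), MAST4 (1.01), ATP2C2 (1.01), GRHL2 (0.95) and ESRP1 (0.51), and those that fell were F10 (-0.91), OSGIN1 (-0.83), IFI35 (-0.82), PER1 (-0.80), F3 (-0.77), CRY2 (-0.74) and TEF (-0.51). Genes called in opposite directions were CAPN6 (3.27), NCAM1 (2.53), SLC5A1 (2.25) and KCTD12 (1.90), which fell in the wild type and rose in the knock-out, and EPS8L3 (-2.56), which did the reverse. Genes called in the same direction were KRT7 (1.19) and LCN2 (1.005) on the higher side and HAS3 (-1.11), CRY1 (-0.99) and PER2 (-0.86) on the lower side of the interaction. Genes called over time in neither genotype were LRP1B (1.17) and MAML3 (0.92), and on the lower side ADAMTS15 (-1.02) and PRF1 (-0.86). Groups of 3 libraries are too small to look for single libraries far from their group.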

How the results depend on the processing

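None of the 59 named interactions reversed under any alternative, and 38 were called in all 12 fits that left out 1 library. With DESeq2's test there were 464 interacting genes in place of 235, in classes of 297 (wild type alone), 71 (knock-out alone), 33 (opposite), 14 (same direction) and 49 (neither), with 599 time calls in knock-out cells and 63 list members interacting in place of 35. Without the filter on low counts the values were 423, 254, 68, 30, 14, 57, 484 and 72 in the same order. An adjusted p under 0.1 gave 390 genes, and the GC correction gave 24 in the class of neither. Fold changes over time correlated with GC content across genes with a Spearman rho of -0.01 for wild-type cells, -0.30 for knock-out cells and -0.20 for the interaction. Fitting each genotype separately gave 578 time calls for the wild type against 728 for the knock-out; the classes were then 119, 53, 16, 8 and 39, and all 34 genes of the knock-out class kept their class while 30 of the wild-type class moved to neither. Sorted at an unadjusted p under 0.05, the classes held 104, 21, 92, 18 and 0 genes, and sorted by a change of at least 1.5-fold 97, 30, 23, 5 and 80. Leaving out 1 library gave 124 (without the initial knock-out replicate 3) to 444 (without the initial wild-type replicate 2) interacting genes; without the initial knock-out replicate 2, the final wild-type replicates 2 and 3 and the initial wild-type replicate 3 there were 130, 135, 144 and 135, and without the knock-out's initial or final replicate 1, 152 and 151. Over these fits the classes ran from 84 to 276 (wild type alone), 16 to 61 (knock-out alone), 8 to 33 (opposite), 3 to 11 (same direction) and 5 to 66 (neither), the time calls from 627 to 1399 (wild type) and 94 to 463 (knock-out), and the list members from 23 to 52. Such a fit assumes that the pair left in a group varies like the others. The replicate numbers did not pair the libraries: among 18 same-numbered pairs the correlation of deviations from the group means ran from -0.36 to 0.24, with 6 over 0.1, and a replicate block gave 217 interacting genes. Genes of few counts limit what 3 libraries per group can show, and a change that missed the threshold is not shown to be absent.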
